A study of Drosophila melanogaster with 6 samples.

Results

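The septate junction core adhesion complex was followed through 9 genes, Nrx-IV, Cont, Nrg, cora, vari, nrv2, Lac, Mcr and Gli, chosen by name and matched by gene symbol. All 9 were found among the 17411 genes of the FPKM table, and all 9 were among the 6064 genes whose mean FPKM over both groups was above 10. Cells came from leg imaginal discs of sr-gal4>UASGFP Drosophila melanogaster at 0 h after puparium formation (APF), the white pupa stage. GFP+ cells were sorted for GFP driven by an enhancer-trap Gal4 insertion in stripe (sr), the transcription factor that specifies tendon cells, and 3 libraries were made from them. The input cells, called control in the sample labels, carried the same driver and reporter at the same age, were sorted from the dissociated discs without regard to fluorescence, and gave 3 libraries. The input therefore still held GFP+ cells, and both groups had passed through the same collagenase and papain dissociation. The reporter is given as UAS-GFP in the labels and as a Lifeact fusion, a GFP tag on filamentous actin, in the study's methods.

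Septate junctions seal the lateral spaces between neighbouring cells of insect epithelia and lie just below the adherens junctions. In ectodermal epithelia, including imaginal discs, they are of the pleated kind and are built from cell adhesion proteins that bind across the intercellular gap, a cytoplasmic scaffold under the membrane, subunits of the sodium pump and a set of claudin-like and Ly6-type proteins. Where the corners of 3 cells meet, a specialised tricellular junction takes over the seal. These complexes are best known from embryonic trachea, salivary gland and epidermis, where their loss opens the paracellular barrier and alters tube length, and from the glia that insulate nerves.

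The deposited table gave 1 FPKM value (fragments per kilobase of transcript, scaled to the number of mapped reads) for each group, with a lower and an upper confidence bound and no value for any single library. No spread between libraries could therefore be computed and no test between the groups was possible; values are given with their deposited bounds, whose confidence level is not given in the sources used here. A gene is called higher or lower in GFP+ cells where its FPKM ratio reached 1.5 or 1/1.5. The study used a fold above 1.5 to pick transcription factors higher in GFP+ cells, with folds from normalized counts and not from FPKM. The bounds are described as separate where those of the 2 groups did not overlap. Ratios are GFP+ over input throughout. The FPKM of all genes summed to 926347 in GFP+ cells, against 689351 in the input, a ratio of 1.34, and the 10 highest genes held 10.4% of that sum in GFP+ cells, against 7.16% in the input. The labelled tissue was checked with tendon genes. The FPKM of sr was 54.5 in GFP+ cells, against 6.59 in the input, and that of Tsp, the Thrombospondin of muscle attachment sites, was 345 in GFP+ cells, against 59.0 in the input. Of the 4 tendon markers, 3 were higher in GFP+ cells, and slow, a secreted partner of Thrombospondin, was lower at 24.9 in GFP+ cells, against 84.3 in the input.

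All 9 core genes were strongly represented in both groups. Their mean normalized counts over all 6 libraries ran between 6674 and 29818 reads, and the bounds lay 18.7% to 23.1% away from each FPKM value. Their FPKM ran between 81.5 and 478 in GFP+ cells, against a range between 81.7 and 480 in the input. None of the 9 was called higher in GFP+ cells, where 13.6% of all genes above 10 FPKM were called higher, and 1, Nrg, was called lower, where 19.4% of all genes were. Bounds were separate with the GFP+ value on top for none of the 9, against 6.46% of all genes, and with the GFP+ value below for Nrg alone, against 16.3% of all genes. The median log2 FPKM ratio of the 9 genes was −0.08, beside 0.02 for all genes above 10 FPKM, and the SD of the 9 log2 ratios was 0.30. With all 9 added, the complex had 1458 FPKM in GFP+ cells, against 1565 FPKM in the input, a ratio of 0.931. In bulk samples, fewer cells of a type and less RNA per cell cannot be told apart, so a ratio near 1 here is one of RNA share, not of junctions per cell.

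**Figure D1:**
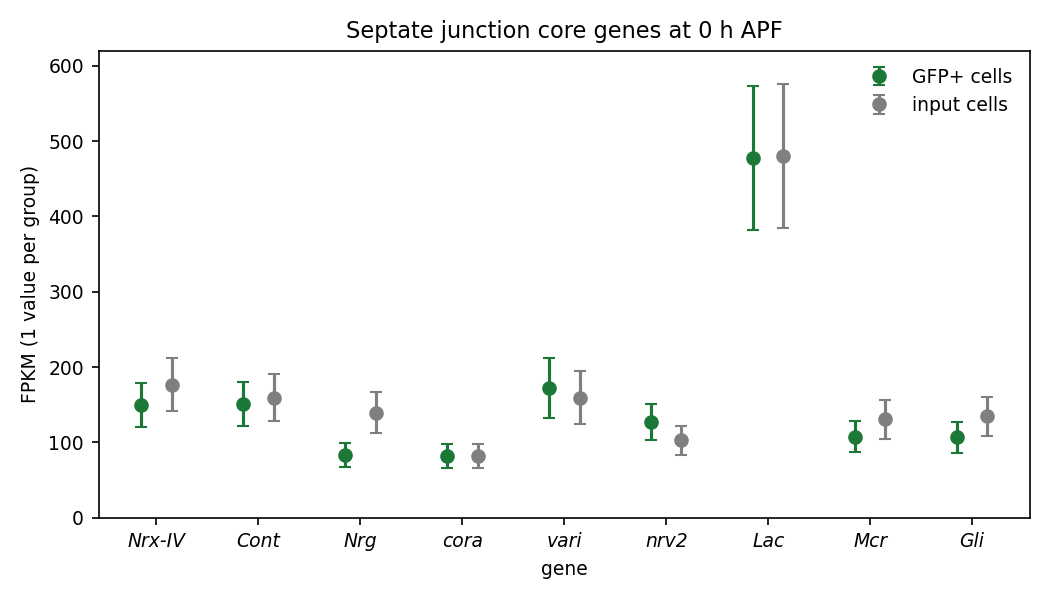
FPKM of the 9 septate junction core genes (vertical axis, linear from 0) in GFP+ cells (green, left of each pair) and input cells (grey), 1 value per group, with bars for the deposited lower and upper bounds. Lac stands near 480 FPKM in both groups, the bars of 8 genes overlap between the groups, and only those of Nrg, at 83.4 in GFP+ cells, against 139 in the input, do not.

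The adhesion proteins of the complex were taken first. Nrx-IV encodes Neurexin IV, a transmembrane protein with Laminin G and EGF-like domains that is a core component of the pleated septate junction. It lies at 3L:12146519-12156990 on the plus strand (FBgn0013997; dm6) with 2 annotated transcripts. The Nrx-IV level was 150 FPKM (bounds 121 to 179) in GFP+ cells, against 177 FPKM (bounds 142 to 212) in the input. The ratio was 0.847, or −0.24 on the log2 scale, and the bounds overlapped; 34.6% of all genes above 10 FPKM had a lower ratio. Cont encodes Contactin, an immunoglobulin superfamily protein held to the membrane by a glycosylphosphatidylinositol anchor, at 3R:4381306-4387018 on the plus strand (FBgn0037240), with 1 transcript. Its level was 151 FPKM (bounds 122 to 180) in GFP+ cells, against 160 FPKM (bounds 129 to 191) in the input, a ratio of 0.946 and a log2 ratio of −0.08. The levels of Nrx-IV and Cont, whose proteins need each other to reach the junction in embryos, were almost equal within each group. Nrx-IV stood at 0.991 times Cont in GFP+ cells, against 1.11 times Cont in the input.

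Nrg encodes Neuroglian, the Drosophila L1-type adhesion molecule and the third partner of this trio, at X:8517373-8555170 on the plus strand (FBgn0264975). It was the core gene that departed most from a ratio of 1. The Nrg level was 83.4 FPKM (bounds 67.5 to 99.2) in GFP+ cells, against 139 FPKM (bounds 112 to 167) in the input. The bounds did not overlap, the ratio was 0.598, which is 40.2% lower in GFP+ cells, and the log2 ratio was −0.74, with −1.30 and −0.18 as the most extreme values that the bounds allow. A lower ratio was found for 14.1% of all genes above 10 FPKM. Nrg thus took a smaller place within the trio, at 0.557 times Nrx-IV in GFP+ cells, against 0.788 times Nrx-IV in the input, and at 0.552 times Cont in GFP+ cells, against 0.873 times Cont in the input. Nrg makes a form found in most epithelia and a form of neurons by alternative splicing of its last exons, and its 9 annotated transcripts run between 4492 and 7386 bases; the table gave 1 value per gene, so the forms could not be separated.

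The call for Nrg depended on how the groups were scaled. The length relation was taken over 5886 genes above 10 FPKM with an annotated length and an FPKM above 0 in both groups. Their log2 FPKM ratio was lower for longer transcripts, with a Spearman correlation of −0.68 across genes, which are not independent replicates and share the same libraries. After a smooth trend on median transcript length was subtracted, the log2 ratio of Nrg was −0.05, and 42.8% of genes then had a lower value. With the longest annotated transcript of each gene as its length, a setting chosen after the data had been seen, it was 0.13. Relative to its partners, Nrg moved less with the trend on median length removed. The log2 difference between groups was then −0.47 against Nrx-IV and −0.60 against Cont, beside −0.50 and −0.66 as deposited. Median transcript lengths were close, at 5247 bases for Nrg, 4940 for Nrx-IV and 4742 for Cont, so this trend nearly cancels between them. With the longest transcript as the length the gaps were narrower, with log2 ratios of 0.13 for Nrg, 0.37 for Nrx-IV and 0.50 for Cont. Nrg was called lower with the groups scaled to the same FPKM sum (log2 ratio −1.17) and was not called after centring on a list of 10 apical junction and polarity genes of epithelia (−0.09). Of the 8 neuron markers, 6 had a higher FPKM in GFP+ cells and 2 a lower one. Among them elav had 10.1 FPKM in GFP+ cells, against 18.6 in the input, and nSyb had 13.7 in GFP+ cells, against 2.29 in the input. The 8 markers summed to 51.0 FPKM in GFP+ cells, against 38.1 in the input. Their part in the Nrg value was not tested.

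The cytoplasmic scaffold came next. cora encodes Coracle, a FERM domain protein of the band 4.1 family that binds the tail of Neurexin IV, at 2R:19229063-19243751 on the plus strand (FBgn0010434). The cora level was 81.5 FPKM (bounds 65.7 to 97.4) in GFP+ cells, against 81.7 FPKM (bounds 66.1 to 97.3) in the input, the lowest of the 9 in both groups. Its ratio was 0.998, and 48.5% of genes had a lower ratio. With transcript length taken into account cora had the highest value of the 9, a log2 ratio of 0.60, above that of 94.7% of genes, and was the only core gene called higher on that scale, where 5.72% of all genes were. vari encodes Varicose, a membrane-associated guanylate kinase that also docks on Neurexin IV, at 2L:20788662-20797042 on the minus strand (FBgn0250785). Its level was 172 FPKM (bounds 133 to 212) in GFP+ cells, against 159 FPKM (bounds 124 to 194) in the input, a ratio of 1.08 and a log2 ratio of 0.11. The bounds overlapped. The vari level was 2.11 times that of cora in GFP+ cells, against 1.95 times in the input, a difference of 0.12 on the log2 scale that was −0.32 with the length trend removed.

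The vari value is uncertain, because Pomp, a gene on the opposite strand, shares 437 of the 2867 exonic bases of vari and the file merged both genes into 1 locus. Pomp encodes a chaperone of proteasome assembly and was itself abundant, at 217 FPKM in GFP+ cells, against 154 FPKM in the input. The strand setting of the counting is not given in the sources used here, and reads from the shared bases cannot be assigned without it. For Mcr, the opposite-strand noncoding gene CR45257 shares 124 of 6296 exonic bases and is listed at 0 in both groups. Of the other core genes, Nrx-IV encloses the gene CG32099 and Nrg the gene PIP82, and they share 0 exonic bases with them.

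nrv2 encodes a beta subunit of the sodium pump, the one needed for septate junction assembly and for the control of tracheal tube length in embryos, at 2L:6789770-6798862 on the minus strand (FBgn0015777). It had the highest ratio of the 9 core genes. The nrv2 level was 127 FPKM (bounds 103 to 151) in GFP+ cells, against 103 FPKM (bounds 83.4 to 122) in the input, a ratio of 1.23 and a log2 ratio of 0.30. The bounds overlapped and allow log2 ratios between −0.25 and 0.85, and the value was −0.12 with the groups scaled to the same FPKM sum. The catalytic alpha subunit, Atpalpha, went the other way, at 149 FPKM in GFP+ cells, against 207 FPKM in the input (log2 ratio −0.48, bounds overlapping). nrv2 therefore stood at 0.853 times Atpalpha in GFP+ cells, against 0.497 times Atpalpha in the input, a log2 difference of 0.78 that was 0.21 with the length trend removed. Atpalpha transcripts are about as long as those of cora, and its log2 ratio with the length trend removed was 0.13. The sister beta subunit nrv1 had 55.7 FPKM in GFP+ cells, against 68.3 FPKM in the input, and nrv3, a beta subunit of the nervous system, had 5.79 FPKM in GFP+ cells, against 2.72 FPKM in the input. By level, nrv2 was the main beta subunit in both groups, at 2.28 times nrv1 in GFP+ cells, against 1.51 times nrv1 in the input.

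Lac encodes Lachesin, an immunoglobulin superfamily protein with a lipid anchor that binds homophilically and is required for tracheal tube length. It lies at 2R:12453190-12465630 on the plus strand (FBgn0010238) with 1 transcript of 2156 bases. Lac was by far the most abundant of the 9 transcripts and hardly differed between the groups, at 478 FPKM (bounds 383 to 574) in GFP+ cells, against 480 FPKM (bounds 384 to 576) in the input. Its ratio was 0.996, and 48.2% of genes had a lower ratio. The level of Lac exceeded that of 96.6% of genes above 10 FPKM in GFP+ cells, against 96.9% in the input, and Lac alone made up 32.8% of the summed core FPKM in GFP+ cells, against 30.7% in the input. Relative to Nrg, Lac was 5.73 times as high in GFP+ cells, against 3.45 times as high in the input. This difference between the groups was 0.73 on the log2 scale and 0.08 with the length trend removed, where Lac itself had a log2 ratio of 0.03.

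Mcr encodes Macroglobulin complement-related, a large transmembrane relative of the thioester-containing proteins that lacks a working thioester and is needed at the septate junction, at 2L:8074117-8082982 on the minus strand (FBgn0267488). The Mcr level was 108 FPKM (bounds 87.2 to 128) in GFP+ cells, against 131 FPKM (bounds 105 to 156) in the input, a ratio of 0.825 and a log2 ratio of −0.28. The bounds overlapped, and its single transcript of 6296 bases was the longest of the 9 by median length. With the length trend removed the log2 ratio of Mcr was 0.52, above that of 92.8% of genes. Mcr was the most abundant of its family in both groups. Tep4, a secreted thioester-containing protein, had 43.4 FPKM in GFP+ cells, against 42.4 FPKM in the input. Tep2 had 15.5 FPKM in GFP+ cells, against 15.2 FPKM in the input, Tep3 had 8.18 FPKM in GFP+ cells, against 13.3 FPKM in the input, and Tep1 was listed at 0 in GFP+ cells, against 0.0590 FPKM in the input.

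Gli encodes Gliotactin, a neuroligin-like transmembrane protein that sits at the tricellular corners, at 2L:15756002-15762758 on the minus strand (FBgn0001987). Its level was 107 FPKM (bounds 86.7 to 127) in GFP+ cells, against 135 FPKM (bounds 109 to 160) in the input, a ratio of 0.792 and a log2 ratio of −0.34. The bounds overlapped, and 29.6% of genes had a lower ratio. The other proteins of the tricellular junction were set beside it. bark, also called anakonda, a large membrane protein that brings Gliotactin to the corners, had 18.9 FPKM (bounds 15.3 to 22.4) in GFP+ cells, against 33.4 FPKM (bounds 27.2 to 39.6) in the input, was called lower with separate bounds (log2 ratio −0.82), and had a value of 0.24 with the length trend removed. M6, a proteolipid protein, had 100.3 FPKM in GFP+ cells, against 99.1 FPKM in the input. Gli stood at 5.65 times bark and 1.06 times M6 in GFP+ cells, and at 4.03 times bark and 1.36 times M6 in input cells. With the length trend removed both differences turned, since Gli then had a log2 ratio of 0.20 and M6 one of 0.03, so that Gli changed by −0.04 relative to bark and by 0.17 relative to M6, against 0.49 and −0.35 as deposited. Because Gliotactin is also known from glia, glial markers were read alongside: repo had 0.648 FPKM in GFP+ cells, against 1.70 FPKM in the input, moody had 1.63 in GFP+ cells, against 2.42 in the input, and the 7 genes of the list summed to 21.7 FPKM in GFP+ cells, against 31.1 in the input, of which loco alone made up 17.4 in GFP+ cells, against 19.0 in the input. Of the 7 glial genes, 5 had a lower FPKM in GFP+ cells and 2 a higher one, and the lower bound of moody was 0 in both groups. The part of glia in the Gli value was not tested.

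Of the 9 genes, Lac, Cont and cora held the same place in the order of both groups, at ranks 1, 3 and 9, and the other 6 changed place. The largest moves were those of Nrg, which ranked 8 in GFP+ cells, against 5 in the input, and nrv2, which ranked 5 in GFP+ cells, against 8 in the input. In GFP+ cells the order was Lac, vari, Cont, Nrx-IV, nrv2, Mcr, Gli, Nrg and cora; Lac stood 2.77 times above vari with bounds that did not overlap, and each of the other 7 neighbouring pairs had overlapping bounds. In input cells the order was Lac, Nrx-IV, Cont, vari, Nrg, Gli, Mcr, nrv2 and cora, with Lac 2.72 times above Nrx-IV and again no other neighbours with separate bounds. As shares of the summed core FPKM, Nrg made up 5.72% in GFP+ cells, against 8.90% in the input, and nrv2 made up 8.70% in GFP+ cells, against 6.57% in the input. These shares do not change where all genes of a group are rescaled by the same factor, as with the same FPKM sum or with centring. They carry the difference in transcript length between the genes and would change with the length trend removed.

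The scale that was used to set GFP+ cells against input cells set the sign of most core ratios. As deposited, 2 of the 9 log2 ratios were above 0, those of vari and nrv2, and 7 were below. With each group rescaled to the same FPKM sum, which moves every gene by −0.43, all 9 were below 0 and 4 were called lower, namely Nrx-IV, Nrg, Mcr and Gli, on a scale where 39.1% of all genes were called lower and 3.68% higher. The median of all genes then lay at −0.40 and that of the 9 at −0.51. With the length trend removed, 8 of the 9 were above 0 and Nrg was just below, the median of the 9 was 0.33 beside 0.02 for all genes, and cora was called higher. On that scale 5.72% of all genes were called higher and 10.8% lower, and with the longest transcript as the length 5.95% were called higher, cora among them, and 9.71% lower. After centring on the 10 apical junction and polarity genes, whose own median was −0.65, 8 were above 0, the median was 0.57 beside 0.67 for all genes, and cora, vari, nrv2 and Lac were called higher, 4 of 9 where 55.5% of all genes were called higher and 5.16% lower. Under that centring 91.5% of all calls were higher calls, beside 41.2% as deposited and 8.59% with the groups scaled to the same sum. With FPKM as deposited, a less strict fold than 1.5 called Nrg and Gli lower and none of the 9 higher, where 30.3% of all genes were called lower and 28.5% higher, and a 2-fold threshold called none of the 9, where 8.44% of all genes were called lower and 3.76% higher. With the longest transcript as the length, 8 were again above 0, and the one just below was Lac at −0.02. Nrg was the lowest of the 9 on the deposited, same-sum, length-corrected and epithelial scales.

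**Figure D2:**
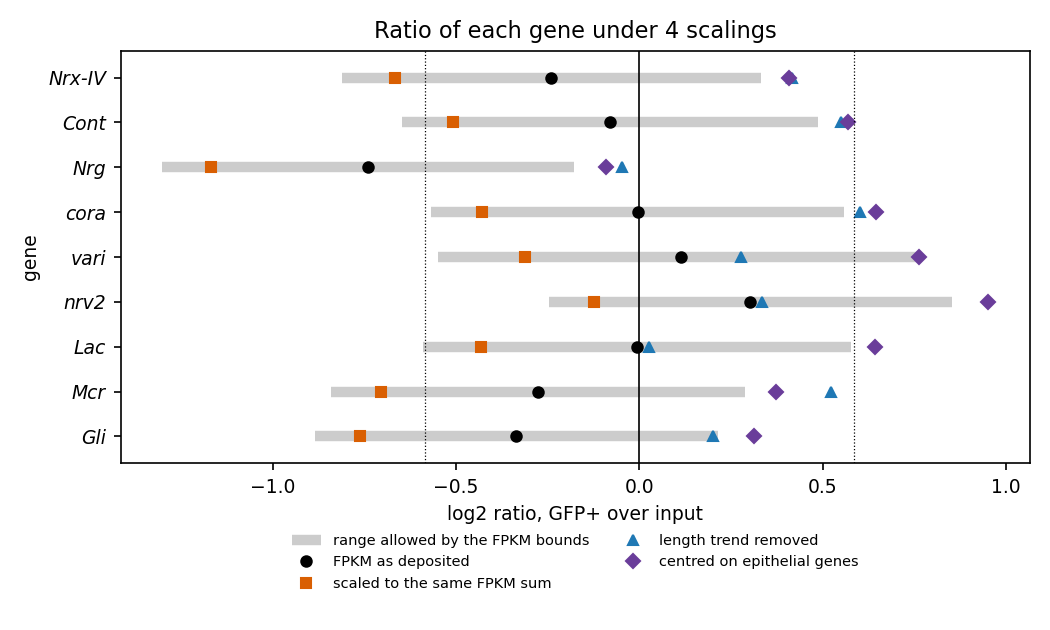
log2 ratio of GFP+ over input (horizontal axis) for the 9 genes (rows) as deposited (black), scaled to the same FPKM sum (orange squares), with the length trend removed (blue triangles) and centred on epithelial genes (purple diamonds); grey bars span the ratios allowed by the FPKM bounds and dotted lines mark 1.5-fold. The whole grey bar lies below 0 for Nrg only, and the position of most genes about 0 changes with the scale.

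The relation with transcript length was also present among the core genes. The Spearman correlation of log2 ratio with median transcript length was −0.73 over the 9, which share their libraries. nrv2, Lac and vari, with median lengths of 2149.5, 2156 and 2535 bases, had log2 ratios of 0.30, −0.01 and 0.11. Gli, cora, Cont, Nrx-IV, Nrg and Mcr, all of 4095 bases or more, had ratios below 1. All 9 are longer than the median of 1885 bases for all genes above 10 FPKM, and at their length 8 of the 9 lay above the trend line.

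**Figure D3:**
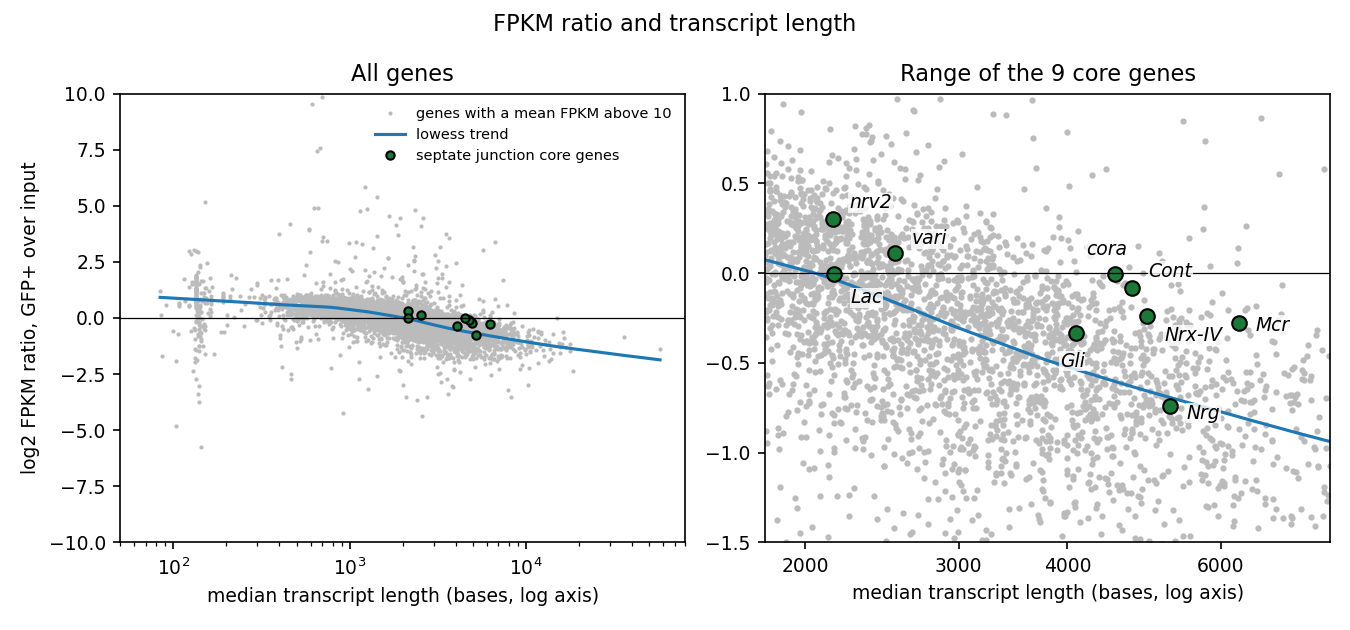
log2 FPKM ratio of GFP+ over input (vertical axis) against median transcript length in bases (log axis) for 5886 genes with a mean FPKM above 10 (grey), with the smooth trend (blue line) and the 9 core genes (green); the right panel enlarges the range of the core genes. Ratios are lower for longer transcripts, and of the 9 core genes only Nrg is below the line.

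Lists of other genes linked to the septate junction were then described, to set the core complex beside them. A list of other membrane and secreted components, drawn up by name, held 15 genes, of which 14 were matched and 12 had a mean FPKM above 10. Whether each listed gene, rtv among them, acts at the pleated septate junction of leg discs was not tested. All 12 had ratios above 1, and their median log2 ratio was 0.46. Of them, 3 were called higher and none lower, where 13.6% of all genes were called higher and 19.4% lower. Bounds were separate for 2 with the GFP+ value on top, against 6.46% of all genes. The 3 with the highest ratios were the Ly6-type proteins crim, crok and cold, small lipid-anchored proteins needed to form the junction. crim had 186 FPKM in GFP+ cells, against 96.6 FPKM in the input (log2 ratio 0.95), crok had 206 in GFP+ cells, against 107 in the input (0.94), and cold had 211 in GFP+ cells, against 114 in the input (0.89). The bounds were separate for crok and cold and overlapped for crim. The 3 with the lowest ratios were bou, another Ly6-type protein, at 172 FPKM in GFP+ cells, against 160 in the input (bounds 74.3 to 270 in GFP+ cells, against 21.8 to 299 in the input), Tsf2, the melanotransferrin of the junction, at 143 in GFP+ cells, against 124 in the input, and rtv at 63.6 in GFP+ cells, against 54.6 in the input. These genes have short transcripts, with a median of 1061 bases against 4538.5 bases for the core genes. With the length trend removed, 10 of the 12 were above 0, and their median of 0.36 stood beside 0.33 for the core genes. None of the 12 was called on that scale, where 5.72% of all genes were called higher and 10.8% lower. With the longest transcript as the length 1 was called higher, where 5.95% of all genes were. With the groups scaled to the same FPKM sum, 7 of the 12 were above 0. None was called there, where 3.68% of all genes were called higher and 39.1% lower. After epithelial centring all 12 were called higher, where 55.5% of all genes were.

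The 4 basolateral polarity genes whose proteins lie in the region of the septate junction were all called lower with separate bounds. Of all genes, 19.4% were called lower and 16.3% had separate bounds with the GFP+ value below. dlg1, a guanylate kinase scaffold, had 25.8 FPKM in GFP+ cells, against 54.3 FPKM in the input. scrib, a large scaffold with PDZ domains, had 24.5 in GFP+ cells, against 39.7 in the input. l(2)gl, a partner of both, had 57.4 in GFP+ cells, against 100.1 in the input. In GFP+ cells l(2)gl had bounds (46.7 to 68.1) that overlapped those of cora and Nrg, the lowest core genes. yrt, the FERM protein that acts with cora in lateral membrane identity, had 24.8 FPKM in GFP+ cells, against 39.0 in the input. The median log2 ratio of the 4 was −0.75, and it was −0.10 both with the length trend removed and after epithelial centring. None of the 4 was called on the length-corrected scale, where 5.72% of all genes were called higher and 10.8% lower. After epithelial centring none was called either, where 55.5% of all genes were called higher and 5.16% lower. The median transcript length of the 4 was 5048 bases. The 10 apical junction and polarity genes of epithelia had 5 called lower and none higher, where 19.4% of all genes were called lower and 13.6% higher. Their median was −0.65 and their length-corrected median −0.04. On the length-corrected scale, then, the medians were 0.33 for the core genes and 0.36 for the other membrane and secreted components, beside −0.10 for the basolateral and −0.04 for the apical list, and no test of these differences was possible.

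**Figure D4:**
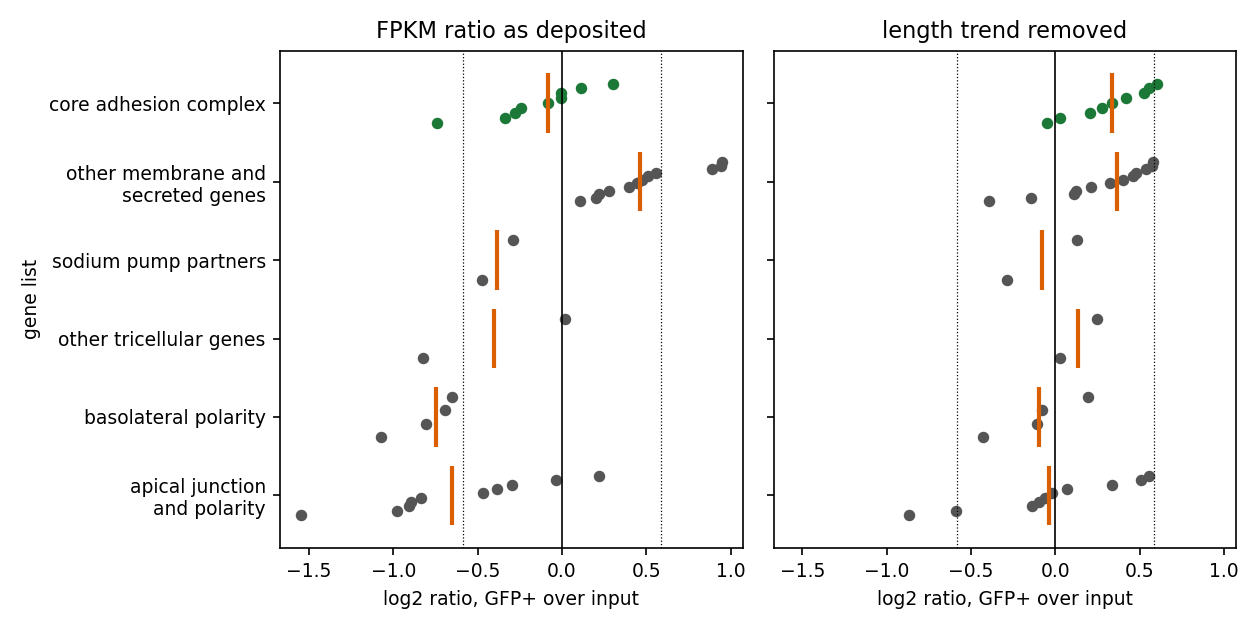
log2 ratio of GFP+ over input (horizontal axis) of each gene with a mean FPKM above 10, by gene list (rows), as deposited (left) and with the length trend removed (right); orange lines are list medians and dotted lines mark 1.5-fold. As deposited the core genes centre on −0.08, the other membrane and secreted genes on 0.46 and the basolateral genes on −0.75, and with the trend removed these medians are 0.33, 0.36 and −0.10.

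The kind of septate junction was read from 3 genes of the smooth type, which is found in the gut and the renal tubules. Ssk had 0.660 FPKM in GFP+ cells, against 0.247 in the input, mesh had 0.0884 in GFP+ cells, against 0.0186 in the input, and Tsp2A had 0.906 in GFP+ cells, against 0.661 in the input. All 3 were under 1 FPKM in both groups, far below each of the 9 core genes. grh encodes Grainyhead, the epithelial transcription factor with septate junction genes among its known targets in embryos. It had 37.8 FPKM (bounds 30.1 to 45.5) in GFP+ cells, against 127 FPKM (bounds 101 to 154) in the input, a log2 ratio of −1.75 that was −1.17 with the length trend removed. grh was thus called lower as deposited and with the length trend removed. Of the core genes, Nrg alone was called lower as deposited, where 19.4% of all genes were. None of them was called lower on the length-corrected scale, where 10.8% of all genes were. Whether the core genes follow grh in these cells was not tested.

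Close relatives of the core genes were compared to see which member of each family carried the RNA. The neurexin Nrx-1 of synapses had 1.11 FPKM in GFP+ cells, against 0.443 in the input, and axo, another neurexin relative, had 1.02 in GFP+ cells, against 0.352 in the input, both far under Nrx-IV. Among FERM proteins, Moe, the Moesin that links actin to the membrane, had 216 FPKM in GFP+ cells, against 324 in the input, and Mer, the Merlin tumour suppressor, had 16.1 in GFP+ cells, against 19.4 in the input. Among guanylate kinases, metro had 3.18 FPKM in GFP+ cells, against 0.854 in the input, and CASK had 10.1 in GFP+ cells, against 20.6 in the input, both under vari. The neuroligins were low beside Gli. Nlg1 had 0.193 FPKM in GFP+ cells, against 2.55 in the input, Nlg2 had 4.27 in GFP+ cells, against 0.633 in the input, Nlg3 had 0.452 in GFP+ cells, against 0.170 in the input, and Nlg4 had 1.02 in GFP+ cells, against 0.223 in the input. Nrt, Neurotactin, a cholinesterase-like adhesion protein, was the exception at 234 FPKM (bounds 187 to 282) in GFP+ cells, against 90.2 FPKM (bounds 72.7 to 108) in the input, with separate bounds and a log2 ratio of 1.38. Its known ligand, the immunoglobulin protein Ama, was called higher as well, at 221 FPKM in GFP+ cells, against 128 in the input. Fas2, an adhesion molecule of the immunoglobulin superfamily like Nrg, was called lower at 71.9 FPKM in GFP+ cells, against 156 in the input (log2 ratio −1.12).

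Markers of the other cells that the input could hold differed between the groups. All 6 myoblast markers were lower in GFP+ cells, with sums of 14.5 FPKM in GFP+ cells, against 156 FPKM in the input. Among them twi had 2.56 FPKM in GFP+ cells, against 29.0 in the input, and Mef2 had 2.79 in GFP+ cells, against 20.4 in the input. Of the 3 tracheal markers, trh had 7.77 FPKM in GFP+ cells, against 24.2 in the input, and btl had 0.0918 in GFP+ cells, against 0.678 in the input, with sums of 9.01 in GFP+ cells, against 37.6 in the input. Hemocyte markers were low in both groups, with sums of 6.04 FPKM in GFP+ cells, against 3.99 in the input over 7 genes, 2 of them listed at 0 in GFP+ cells. Of the 7, 6 were lower in GFP+ cells, and the higher sum came with Nplp2, at 4.65 FPKM (bounds 0 to 9.45) in GFP+ cells, against 1.12 FPKM (bounds 0 to 3.40) in the input. Hml had 0.0138 FPKM in GFP+ cells, against 0.128 in the input, and Pxn had 1.35 in GFP+ cells, against 1.96 in the input. Myoblasts are not epithelial cells and tracheal cells carry pleated septate junctions of their own. The part of these cells in the core ratios was not tested.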

How the data were processed

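RNA of FACS-sorted GFP+ and input leg disc cells (3 libraries each) was sequenced single-end after oligo-dT priming. Per the labels and the study's methods, reads were trimmed with Trimmomatic 0.32 and aligned to dm6 with Bowtie2 2.1.0; the counting program, annotation and strand setting are not given in the sources used here. The authors deposited FPKM values with confidence bounds (Cufflinks 2.2.1), 1 per group over 17411 genes, and a DESeq2 1.2.8 table of 17490 genes. From that table only 1 signal column was used, the authors' mean of normalized counts, which pools the 6 libraries and is not a raw count. Its columns of fold changes, errors, test statistics and p-values, which hold the study's own comparison, were not used, and 0 columns of per-sample values were left unused. Library totals are not known; the mean normalized counts summed to 31652200.

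FPKM ratios without a pseudocount were computed in Python 3.11.15 with pandas 2.3.3 and numpy 2.4.6. The share of genes called was taken over 6064 genes with a mean FPKM above 10 and an estimate marked as successful. On the length-corrected scales it was taken over the 5912 of these with an annotated transcript length. Group values allow no test, so none was run; a limma test was planned only for the case that each library had a value. Length trends were lowess curves (statsmodels 0.14.6, span 0.3) on log10 transcript length from the Ensembl 115 annotation, whose coordinates are on the dm6 assembly and matched 17138 gene IDs; the scripts were tested on simulated data. Alternatives were a pseudocount of 1, same-sum scaling, centring, length trends, other folds and filters, and leaving out each core gene. Named genes were all 9 core genes, the pump, tricellular, basolateral, Grainyhead and paralog lists, the 3 highest and 3 lowest of the other membrane and secreted genes, and the first 2 of each marker list; slow, loco, Nplp2 and the smooth junction genes were added after their values were seen. The core genes and lists were chosen with earlier results of these data known. Figures were drawn with matplotlib 3.10.9.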

Additional observations from a re-analysis of the deposited data

How the results depend on the processing

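The median log2 ratio of the 9 core genes, −0.08 as deposited, kept its sign with a pseudocount of 1 (−0.08), with centring on all genes (−0.10) and with each gene left out in turn (−0.16 to −0.04). It was −0.51 with the groups scaled to the same FPKM sum, 0.33 with the length trend removed, 0.37 with the trend on the longest transcript (an alternative chosen after seeing the data) and 0.57 when centred on epithelial genes. Core genes called higher numbered 0 as deposited (13.6% of all genes), 1 under either length trend (5.72% and 5.95% with the longest transcript) and 4 under epithelial centring (55.5%). Those called lower numbered 1 as deposited (19.4% of all genes), 4 with the same sum (39.1%), 0 under either length trend (10.8% and 9.71%) and under epithelial centring (5.16%), 2 at a less strict fold threshold than 1.5 (30.3%) and 0 at a 2-fold threshold (8.44%). The log2 ratio of Nrg, −0.74 as deposited, was 0.13 with the trend on the longest transcript. Without a filter on low values, 24.2% of all genes were called higher, beside 13.6% with it, and 9.75% had separate bounds with the GFP+ value below, beside 16.3%; more genes enter there. The causes of the other changes were not tested. No paired analysis was possible because the files hold 1 value per group and no value for a numbered library; for the same reason leaving out a replicate was not run. A planned search of the promoters for a Grainyhead motif was not run, since no genome was used here. The limits are set by the missing library values: how far GFP+ and input libraries spread around each FPKM is not known, the bounds are those of the authors' tool, and input cells include GFP+ cells.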
